A study of Mus musculus with 4 samples.

Results

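The Ms4a genes encode small membrane proteins that cross the plasma membrane several times, and many of them mark one blood cell lineage. The 9 members described here, Ms4a1, Ms4a3, Ms4a4a, Ms4a4b, Ms4a4c, Ms4a6b, Ms4a6c, Ms4a6d and Ms4a7, were found by their symbols among the 32285 genes of the count matrices. They were measured in single cells of ascites, the fluid that fills the abdomen of tumor-bearing animals, from female FVB mice at 6 weeks after injection of Br-Luc cells, a mouse ovarian cancer line (p53-/-, brca1-/-, myc, Akt-myr). All mice carried these tumors and all received an LNA-modified siRNA in jetPEI, a polymer carrier. Of 4 libraries, 2 are labelled siCont, a control siRNA (replicates 1 and 2), and 2 are labelled siFXR1-LNA, an siRNA against Fxr1 (replicates 1 and 2), and by the methods each pooled the ascites of 3 mice. The libraries therefore give the spread between pools and not between animals, and with 2 pools in each group an exact permutation test of a single value cannot go below p = 0.333.

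Ms4a1 is CD20, the surface marker of B cells. Ms4a3 is a marker of granulocyte and monocyte precursors whose protein binds the cell cycle phosphatase Cdkn3. Ms4a4b is found on T cells and NK cells, where it acts together with the receptor encoded by Tnfrsf18. Ms4a4a, Ms4a6d and Ms4a7 are known from macrophages, and Ms4a4c, Ms4a6b and Ms4a6c are close relatives that exist as separate genes in the mouse. Ms4a2, a relative that is not among the 9, is the beta chain of the IgE receptor of mast cells and basophils.

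The count matrices list 19 genes whose symbol begins with Ms4a, and the 9 lie within 391.2 kb of chromosome 19 (GENCODE annotation of GRCm38) with 4 other genes of the family between them. From Ms4a1 (11249675 to 11266241, minus strand) the order is Ms4a7 (11321039 to 11336146, minus), Ms4a4a (11375523 to 11392790, plus), Ms4a4c (11404770 to 11427246, plus), Ms4a4b (11443553 to 11467055, plus), Ms4a6c (11469366 to 11482192, plus), Ms4a6b (11516512 to 11531256, plus), Ms4a6d (11586604 to 11604849, minus) and Ms4a3 (11629496 to 11640851, minus). Some neighbours are also close in sequence. The coding sequences of Ms4a4b and Ms4a4c, both of 678 bases, were identical at 91.7% of positions, those of Ms4a6b and Ms4a6c at 86.4% of the aligned positions, those of Ms4a6d and Ms4a6b at 81.8% and those of Ms4a6d and Ms4a6c at 79.6%. The next pair, Ms4a4a and Ms4a4b, had 69.9%, and other neighbours were no closer, such as Ms4a4b and Ms4a6c with 62.3%. Reads of 3′ ends can still tell them apart for the most part. Among stretches of 90 bases from the last 500 bases of their transcripts, 2.83% of those of Ms4a4c also occurred in Ms4a4b and 1.70% of those of Ms4a6c in Ms4a6b, and no such stretch was shared for the other members, so the values of Ms4a4c and Ms4a6c carry a small uncertainty from shared reads.

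The likeness extends to the promoters, and it is shown here because the members of each pair differed in the cells that held them, as the levels below show. RefSeq promoters, windows around the transcription start (GRCm38.p6), were found for 7 of the 9 genes, in 8 windows, and not for Ms4a1 and Ms4a6d. Those of Ms4a4c and Ms4a4b aligned over 242 bases with 84.7% identity, and those of Ms4a6c and Ms4a6b over 218 bases with 86.2% identity. The windows below, 30 bases each and all on the plus strand, are those of Ms4a4c and Ms4a4b that hold GAGGAA, in capitals, as an example of the likeness. The windows of the other pair are not shown here.
Ms4a4c, chr19:11407588-11407617: gaagtgggtgggGAGGAAatgccagaagca
Ms4a4b, chr19:11443482-11443511: gagatgggtgggGAGGAAatgtcagaggca
Of the 30 bases, 26 were identical. Searched on both strands, GAGGAA, the core of sites of Ets-family factors such as Spi1, occurred in 4 of the 8 member promoters and in 28.3% of the 32851 promoters of the table. A match describes these letters and does not show that a factor binds there.

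The deposited counts are unique molecular identifiers (UMIs), 1 for each captured RNA molecule. The matrices held 78179267 to 113606837 UMIs, and 132644 of 133849 barcodes passed the filter of the methods. Of the UMIs of kept cells, hemoglobin made up 30.5% and 43.0% under the siCont label and 10.2% in both libraries of the other. Barcodes that also occurred in another library numbered 2556 to 5849 in each. The targeted gene, Fxr1, was not lower under the siFXR1-LNA label in the 5 types of blood cells tested below. In macrophages it had 65.7 and 61.6 UMIs per 1000000 UMIs of the same cells (CPM) under the siCont label. Under the siFXR1-LNA label it had 75.2 and 72.8 CPM there. In T cells the values were 64.9 and 50.3 CPM against 115 and 74.9 CPM. The paper reports lower Fxr1 in epithelial cells after siFXR1-LNA, and less FXR1 protein in cell lines and tumors. Values of Fxr1 in epithelial cells are not given here. Groups are therefore called by their labels. The methods state that the study set aside the shallower of its siFXR1-LNA replicates, in which fewer cells were found. Of the 2 deposited, replicate 2 had fewer UMIs (78179267 against 113606837) and fewer kept cells (16874 against 54344). The excluded library is not named, so both were used, and values without replicate 2 are given where they end a call.

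Cells were grouped by clustering in which no Ms4a gene took part, and a type name below means cells that resemble that type by its marker genes. Macrophages numbered 4083, 1964, 2391 and 2621 cells, given here and below in the order siCont replicates 1 and 2, siFXR1-LNA replicates 1 and 2. There were 1519, 758, 326 and 387 dendritic cells (DCs), 2594, 1931, 815 and 582 B cells, 1509, 1556, 720 and 967 T cells, and 441, 903, 5077 and 4661 granulocytes. NK cells were too few outside the libraries labelled siCont (75, 54, 4 and 9 cells) and were not compared. The libraries of the 2 groups filled largely different finer clusters of the same type. Finer clusters with at least 10 cells in every library held 72.2%, 31.3%, 26.5% and 44.6% of the macrophages, 49.7%, 44.3%, 97.2% and 95.1% of the DCs, 7.44%, 9.94%, 15.2% and 12.5% of the B cells, and no T cells or granulocytes. A largest cluster of 46769 cells, 41181 and 5454 of them labelled siFXR1-LNA, was given no name for want of raised markers, and so were finer clusters in which markers of another type were raised to a set part of that type's own level or outnumbered their own among the 10 leading genes. Clusters below those limits kept their names, such as a granulocyte cluster led within its own first-round cluster by mast cell genes and a small macrophage cluster led there by B cell genes. Macrophage clusters left out for leading classical monocyte genes held almost only cells labelled siFXR1-LNA, the largest with 0, 1, 607 and 598 cells. The cluster named patrolling monocytes, with 1036, 710, 0 and 0 cells, stayed with the macrophages. With clusters left out for their leading genes kept, 4 of 8 members in macrophages passed an adjusted p of 0.05 by edgeR, against 3 without them. Without those clusters 17.5% of all 13963 genes tested passed, and the share with them is not given here. Clusters are described below by the genes that lead them within their own first-round cluster.

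**Figure D1:**
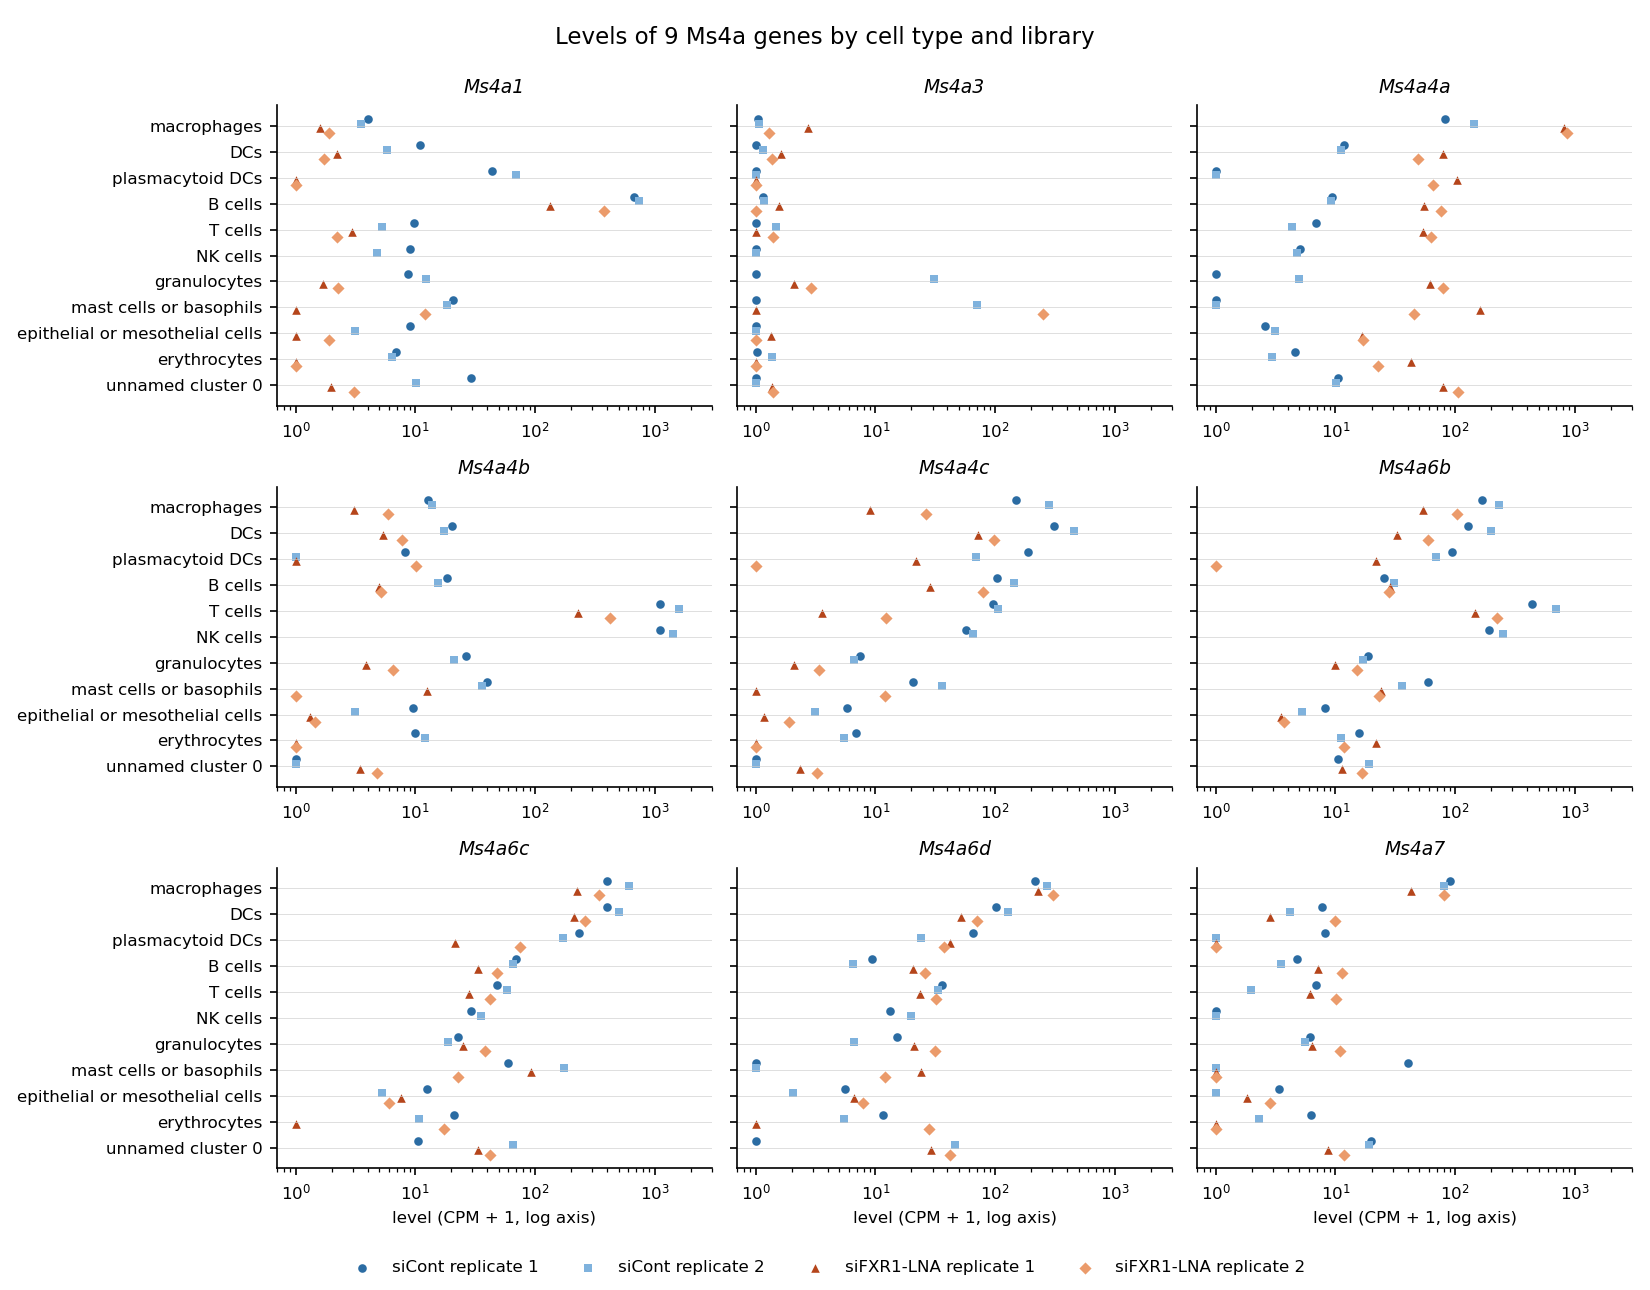
Level of each of the 9 genes, in CPM + 1 on a log axis, in the cell types with at least 10 cells in a library; each point is 1 library, and a point at 1 stands for no UMI. Ms4a1 is highest in B cells, Ms4a4b in NK and T cells, and Ms4a4a, Ms4a6c, Ms4a6d and Ms4a7 in macrophages, where Ms4a4a had 81.5 and 143 CPM under the siCont label and 814 and 857 CPM under the siFXR1-LNA label.

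Ms4a1 was the B cell gene of the family in all 4 libraries. It had 671, 731, 132 and 376 CPM in B cells. The next types in order, plasmacytoid DCs and mast cells or basophils, had 0 to 68.7 CPM and 0 to 19.5 CPM, and macrophages had 0.597 to 3.02 CPM. The 4 B cell values lay above those of every other type, while the lower-ranked types overlapped each other.

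After each cell was thinned to 1000 UMIs, 43.4% (95% exact binomial interval 41.4% to 45.4%), 40.7% (38.5% to 43.0%), 8.34% (6.52% to 10.5%) and 25.7% (22.2% to 29.5%) of B cells had a UMI of Ms4a1. In T cells, which should lack it, the shares were 0.976%, 0.330%, 0.142% and 0%, at a median depth of 1951 to 2470 UMIs per cell against 1969 to 2263 in B cells. Without thinning, 64.6% of the B cells of siCont replicate 1 had a UMI. Such intervals cover counting error only.

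Both B cell values labelled siFXR1-LNA lay below both labelled siCont, and they lay further apart than the control pair. The log2 difference was -1.58 (SE 0.45), which did not pass the test (edgeR, adjusted p = 0.224). The summed CPM of the 6 B cell markers, Cd79a among them, moved less, from 5668 and 7759 to 3422 and 5780 CPM, with all 6 detected in every library. The ratio of Ms4a1 to Cd79a UMIs, which does not depend on how many other RNAs a cell holds, was 0.298 and 0.253 in B cells labelled siCont and 0.134 and 0.193 in those labelled siFXR1-LNA.

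Ms4a1 was unevenly spread among B cell clusters. In the largest, led by Iglv2 and Igkv1-110, it had 802 and 965 CPM under the siCont label and 868 CPM in the 22 cells of siFXR1-LNA replicate 2. In a cluster led by Saa3 and Vegfa with 0, 3, 686 and 468 cells, Ms4a1 had 135 and 335 CPM in the latter pair. The 1 B cell cluster with at least 10 cells of every library, led by St6galnac3 and Gm47782, had 278, 311, 98.9 and 275 CPM of Ms4a1. Within that cluster the log2 difference was -0.90 (adjusted p = 0.512), and siFXR1-LNA replicate 2 lay beside the control pair.

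Ms4a1 passed the threshold in 2 types that are not B cells, at very low levels. Macrophages had 3.02, 2.52, 0.597 and 0.888 CPM (log2 difference -1.67, SE 0.39, adjusted p = 0.0432), and granulocytes 7.65, 11.4, 0.690 and 1.28 CPM (-3.62, SE 0.61, adjusted p = 0.0140). These values move with the B cells of the libraries. In macrophages the summed B cell markers went from 81.0 and 74.4 to 32.1 and 42.2 CPM and in granulocytes from 71.4 and 97.7 to 16.6 and 29.6 CPM, and the ratio of Ms4a1 to Cd79a in macrophages labelled siCont, 0.261 and 0.278, was close to that in B cells, while under the siFXR1-LNA label it was 0.0811 and 0.184, from 9 and 21 UMIs of Ms4a1. After thinning, 0% to 0.256% of macrophages and 0.0804% to 0.798% of granulocytes held a UMI of Ms4a1, which is within the range of T cells. The part of B cell RNA in these calls was not tested. The macrophage call did not hold without any 1 of the 4 libraries (adjusted p from 0.0990 to 0.228), and the granulocyte call not without siCont replicate 2 or siFXR1-LNA replicate 1 (0.0698 and 0.120).

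Ms4a3, the precursor gene, was scarce everywhere and came from a handful of cells. In the 27 to 40 cells of the cluster named immature neutrophils, led by Camp, Ltf and Ngp, Ms4a3 had 283 CPM in siCont replicate 2 and 36.1 and 43.3 CPM under the siFXR1-LNA label. In siCont replicate 2 these were 51 UMIs in 5 of 27 cells, with 30 of them in 1 cell. In mast cells or basophils the values were 0, 69.8, 0 and 252 CPM, where the last rests on 23 UMIs of a single cell. One further cell, in a cycling macrophage cluster of siFXR1-LNA replicate 1, held 24 UMIs. Over all granulocytes Ms4a3 had 0, 30.1, 1.08 and 1.91 CPM, and the difference did not pass the test (log2 -3.90, SE 0.96, adjusted p = 0.0578). It rests on siCont replicate 2, since the fitted difference is 6.47 without that library and siCont replicate 1 held no UMI of Ms4a3 in granulocytes. In the other 4 types Ms4a3 did not pass the filter on low counts and was not tested.

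Ms4a4b and Ms4a6b were highest in lymphocytes. Ms4a4b had 1114, 1582, 228 and 424 CPM in T cells and 1097 and 1423 CPM in the NK cells labelled siCont. These ranges overlap, and both lie above every other type, where the highest value was 39.0 CPM in mast cells or basophils. After thinning to 1000 UMIs, Ms4a4b was found in 58.1%, 70.6%, 19.3% and 24.6% of T cells, and in 74.0% and 63.0% of NK cells labelled siCont. In B cells, which should lack it, 0.352% to 1.64% of the cells had a UMI.

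T cells labelled siFXR1-LNA held less Ms4a4b than T cells labelled siCont, without overlap, but the difference did not pass the test (log2 -2.10, SE 0.38, adjusted p = 0.105). The 6 T cell markers summed to 2383, 2906, 825 and 2024 CPM. Within T cells the level of Ms4a4b differed widely between clusters. In the CD8 T cell cluster, led by Ly6c2 and Ccl5, Ms4a4b had 1579 and 1594 CPM under the siCont label and 1457 CPM in the 18 cells of siFXR1-LNA replicate 2. In a cluster led by Trbv3 and Ifit3, with 1023, 656, 1 and 8 cells, Ms4a4b had 1280 and 1938 CPM in the former pair, and in one led by Igfbp4 and Dapl1 it had 888 and 1384 CPM. A cluster led by Saa3 and Ccn2, with 0, 6, 598 and 497 cells, had 269 and 668 CPM in the latter pair.

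Gamma-delta T cells held little Ms4a4b. Their cluster led by Ifit3 and Cxcr3 had 177 and 306 CPM under the siCont label and 52.9 CPM in siFXR1-LNA replicate 2, and their cluster led by Aqp3, found in siFXR1-LNA replicate 2, had 24.6 CPM. A T cell cluster led by Ctla4 and Vldlr, of 110 and 243 cells labelled siFXR1-LNA, had 17.3 and 26.1 CPM of Ms4a4b. No cluster named as T cells held at least 10 cells of every library, so the difference within a shared T cell cluster was not tested. A finer cluster of the same first-round cluster, led there by St6galnac3 and Lncpint, held 284, 279, 160 and 206 cells. It was left unnamed, with under 3 raised markers of any list.

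Ms4a6b had 437, 690, 144 and 224 CPM in T cells and 190 and 251 CPM in NK cells. Macrophages followed with 165, 233, 52.8 and 103 CPM and DCs with 127, 196, 31.5 and 58.8 CPM, and each of these neighbours in the order overlapped the next. Unlike Ms4a4b, Ms4a6b was therefore found in lymphoid and myeloid cells alike. B cells were low and even, with 24.5, 29.7, 27.6 and 26.9 CPM. Gamma-delta T cells held it, with 193 and 445 CPM labelled siCont and 176 CPM in siFXR1-LNA replicate 2 in the cluster led by Ifit3, and 133 CPM in the cluster led by Aqp3. The CD8 T cell cluster had 468 and 587 CPM of Ms4a6b labelled siCont and 384 CPM in siFXR1-LNA replicate 2. In T cells, macrophages and DCs both values labelled siFXR1-LNA lay below both labelled siCont, with log2 differences of -1.66 (SE 0.36), -1.16 (SE 0.36) and -1.85 (SE 0.34), none of them past the edgeR test (adjusted p = 0.155, 0.0832 and 0.0549). They passed under 4 of 13, 3 of 15 and 6 of 15 alternatives. In the largest shared macrophage cluster the direction turned (0.50, adjusted p = 1.00), and over all shared clusters the differences were -0.36 in macrophages and -0.57 in DCs.

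Ms4a4c is the near-identical neighbour of Ms4a4b, but its highest values were in myeloid cells. It had 311, 451, 70.4 and 97.2 CPM in DCs, 147, 280, 8.02 and 25.2 CPM in macrophages, 103, 143, 27.6 and 78.6 CPM in B cells and 94.3, 105, 2.59 and 11.2 CPM in T cells. Neighbours in this order overlap. Granulocytes had 1.08 to 6.38 CPM and erythrocytes 0 to 5.93 CPM. In DCs, macrophages, B cells and T cells both values labelled siFXR1-LNA lay below both labelled siCont.

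Ms4a4c fell past the threshold in 3 of the 5 types tested. The log2 difference was -3.48 (SE 0.62, adjusted p = 0.0245) in macrophages, -2.22 (SE 0.26, adjusted p = 0.0181) in DCs and -3.80 (SE 0.49, adjusted p = 0.0405) in T cells. B cells (-1.33, SE 0.46, adjusted p = 0.283) and granulocytes (-2.08, SE 0.64, adjusted p = 0.114) did not pass. Under the siCont label 7.74% and 8.66% of T cells had a UMI of Ms4a4c after thinning, against 1.06% and 0.629% of granulocytes, at a median depth of 1951 and 2459 against 1549 and 1419 UMIs. The ratio of Ms4a4c to Ms4a6c UMIs was 1.99 and 1.82 in these T cells against 1.51 and 2.22 in B cells, 0.788 and 0.901 in DCs and 0.370 and 0.460 in macrophages of the same libraries. The part of RNA from other cells in the T cell level was not tested.

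The libraries of each label filled largely different clusters, and the part of this in the fall was not tested. The highest levels of Ms4a4c were in a cluster named type 2 DCs, led by Mgl2 and Cd209a, with 795 and 914 CPM, and in the cluster named patrolling monocytes, led by Nr1h3, Cd300e and Ace and counted with the macrophages, with 492 and 672 CPM. The first held 482, 297, 0 and 0 cells and the second 1036, 710, 0 and 0. In the other cluster of type 2 DCs, led by Ifitm1 and Adam23, with 138 to 289 cells of every library, Ms4a4c had 217, 297, 121 and 155 CPM. Over the clusters that every library filled, the log2 difference was -0.54 (adjusted p = 0.310) in DCs and -1.51 (adjusted p = 0.446) in macrophages, so neither call held there. Over those macrophage clusters edgeR called no gene at all, against 2442 of 13963 over all macrophages. The loss of a macrophage call there therefore does not show that the difference is absent. In the largest shared macrophage cluster alone, led by Ccl8 and Lyve1, Ms4a4c had 36.5, 119, 78.1 and 123 CPM and the direction turned (0.51, adjusted p = 1.00). The calls were also lost without siFXR1-LNA replicate 1 (adjusted p = 0.0890 in macrophages, 0.226 in DCs and 0.0776 in T cells) and, in DCs and T cells, without siFXR1-LNA replicate 2 (0.123 and 0.0674). At a clustering resolution of 0.3 the macrophage and T cell calls were lost as well (0.0595 and 0.0646), the former at a log2 difference of -1.62.

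**Figure D2:**
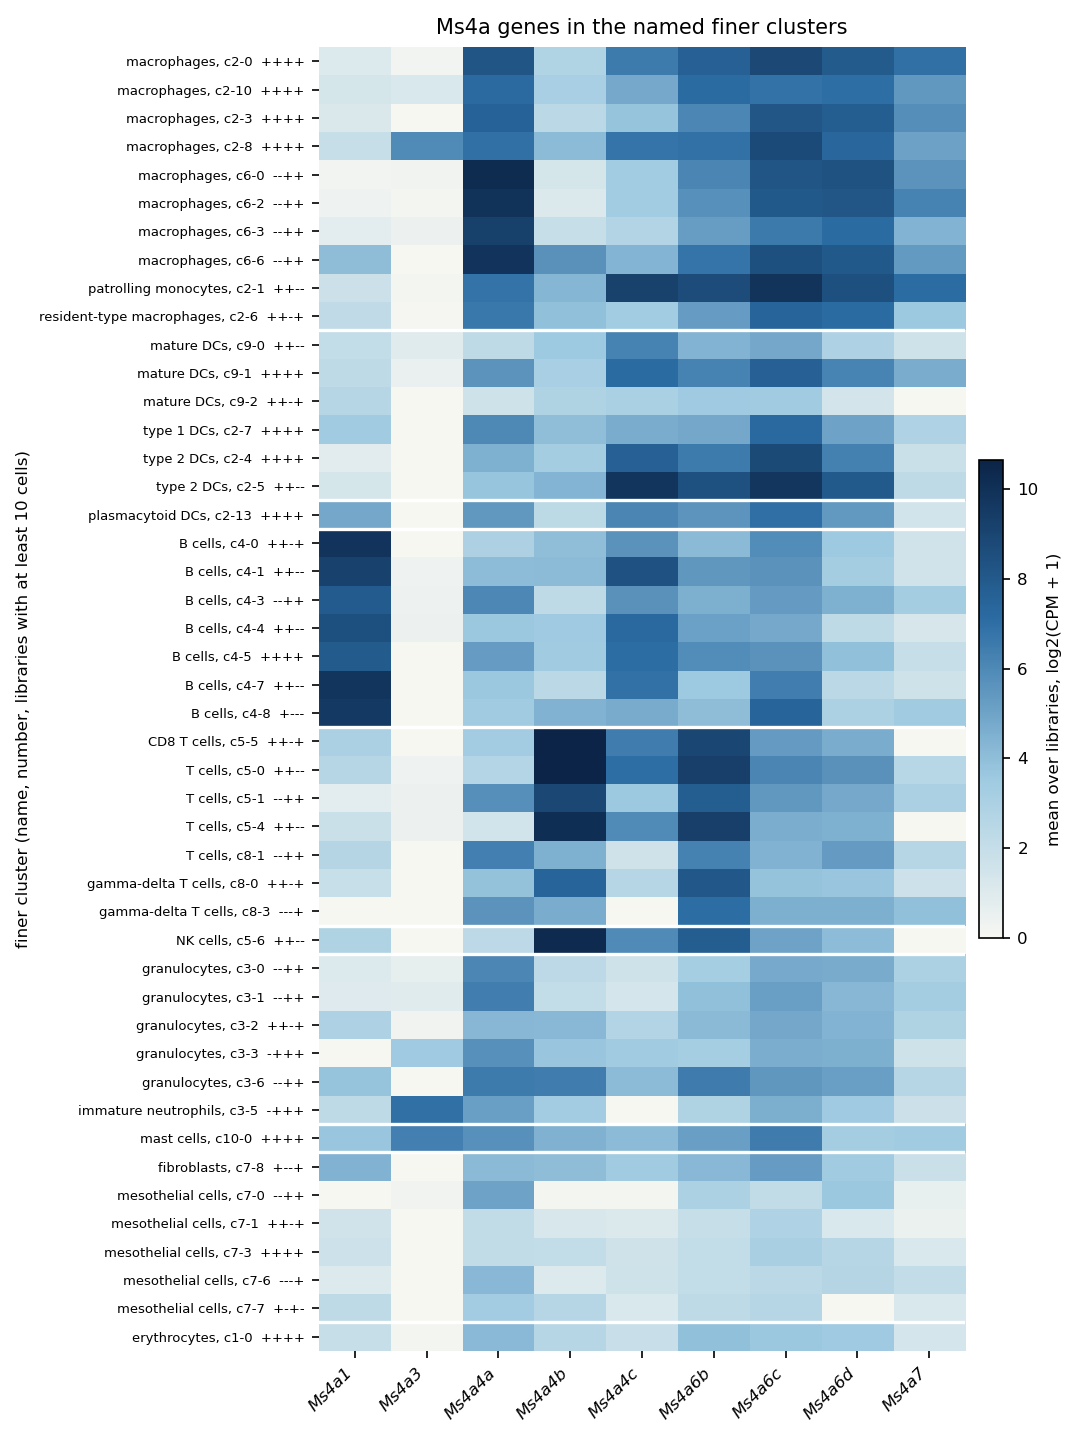
Mean over libraries of log2(CPM + 1) of each gene (columns) in the finer clusters with a name (rows); the 4 signs after each cluster number show, for siCont replicates 1 and 2 and siFXR1-LNA replicates 1 and 2, whether it had at least 10 cells. Ms4a4c is darkest in type 2 DCs and patrolling monocytes with cells under the siCont label alone (795 and 914 CPM, 492 and 672 CPM), and Ms4a4a in macrophage clusters with cells under the siFXR1-LNA label alone.

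Ms4a6c and Ms4a6d were found in both macrophages and DCs, and neither passed the edgeR test in any type, although in DCs Ms4a6c passed under 6 and Ms4a6d under 4 of 15 alternatives, DESeq2 and the replicate block among them. Ms4a6c had 398, 609, 221 and 339 CPM in macrophages and 394, 501, 209 and 260 CPM in DCs, ranges that overlap, followed by plasmacytoid DCs with 20.6 to 230 CPM. Its log2 differences were -0.65 (SE 0.31, adjusted p = 0.196) and -0.97 (SE 0.20, adjusted p = 0.0681). Over the clusters that every library filled they were -0.29 and -0.25. Like Ms4a4c, Ms4a6c was highest in patrolling monocytes (784 and 1058 CPM) and in the type 2 DCs led by Mgl2 (804 and 871 CPM).

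Ms4a6d had 216, 273, 226 and 305 CPM in macrophages, above every value of the next type, DCs, with 101, 128, 50.6 and 69.2 CPM. The 2 groups of macrophages overlapped (log2 difference 0.31, SE 0.22, adjusted p = 0.352), and 18.9%, 21.6%, 17.8% and 23.8% of the macrophages had a UMI after thinning. In DCs the values labelled siFXR1-LNA were lower without overlap (-0.96, SE 0.22, adjusted p = 0.0951). Over the DC clusters that every library filled the direction turned (0.34, adjusted p = 0.455), and in the largest of them the difference was 0.076. Ms4a6d was spread across macrophage clusters that the labels did not share, with 294 and 421 CPM in patrolling monocytes labelled siCont and 280 and 378 CPM in a cluster led by Ppbp and Pf4 labelled siFXR1-LNA.

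Ms4a7 was likewise a macrophage gene, with 89.8, 79.7, 42.2 and 80.1 CPM there and at most 10.3 CPM in the DCs, B cells, T cells and granulocytes. The groups overlapped (-0.27, SE 0.30, adjusted p = 0.549). Within macrophages it was lowest in the cluster named resident-type, led by Prg4 and Alox15, with 6.16 and 8.06 CPM labelled siCont and 19.6 CPM in siFXR1-LNA replicate 2. In the cluster led by Ccl8 and Lyve1 it had 92.7, 132, 62.5 and 193 CPM, and in patrolling monocytes 115 and 156 CPM.

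Ms4a4a was the 1 member that passed the test upwards, and its level was highest in macrophages. Macrophages had 81.5, 143, 814 and 857 CPM, a log2 difference of 3.09 (SE 0.33, adjusted p = 0.00873). The share of macrophages with a UMI after thinning was 8.40% (7.56% to 9.30%) and 12.5% (11.1% to 14.0%) against 42.6% (40.6% to 44.6%) and 44.9% (42.9% to 46.8%). The 2 groups did not overlap. The pair labelled siFXR1-LNA lay close together, while the shares of the pair labelled siCont had intervals that did not overlap. The call was lost without siFXR1-LNA replicate 1 (adjusted p = 0.0595), at a log2 difference of 3.15.

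The highest levels were in clusters that the labels did not share. A first-round macrophage cluster whose leading genes include Nos2, Saa3 and Ptges held 1 cell under the siCont label, the rest being labelled siFXR1-LNA. Of its finer clusters, the one led by Ppbp and Pf4 had 1118 and 1362 CPM of Ms4a4a, the one led by Saa1 and Fcna 883 and 1026 CPM, and the one led by Sox5 and Lrmda 520 and 657 CPM. A small further one, of 58 and 63 cells and with the B cell genes Ebf1 and Cd79a among those that lead it within the macrophages, had 838 and 961 CPM of Ms4a4a. In shared macrophage clusters the values under that label were lower than these. The cluster led by Ccl8 and Lyve1 had 88.9, 277, 390 and 432 CPM of Ms4a4a (2525, 321, 11 and 374 cells), and the cluster led by Gpnmb and Apoc4 had 107, 145, 205 and 299 CPM (16, 32, 420 and 638 cells). In both, each value labelled siFXR1-LNA was above each labelled siCont. Over the clusters that every library filled, the log2 difference was 1.16 and did not pass the test (adjusted p = 0.356), as in the cluster led by Ccl8 and Lyve1 alone (1.10, adjusted p = 1.00). No gene at all was called over the shared macrophage clusters, so this does not show that the difference is absent.

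Ms4a4a also passed the threshold in the other 4 types tested, at far lower levels. B cells had 8.39, 8.13, 53.5 and 74.4 CPM (log2 difference 2.85, SE 0.26, adjusted p = 0.0348), T cells 5.93, 3.34, 53.0 and 62.2 CPM (3.62, SE 0.36, adjusted p = 0.0188), DCs 10.7, 10.1, 77.8 and 47.7 CPM (2.53, SE 0.27, adjusted p = 0.0147) and granulocytes 0, 3.97, 61.0 and 78.7 CPM (4.38, SE 0.68, adjusted p = 0.00953). The unnamed cluster had 78.7 and 105 CPM under the siFXR1-LNA label. Epithelial or mesothelial cells had 15.5 and 16.0 CPM and mast cells or basophils 161 and 43.9 CPM, the latter from 14 and 4 UMIs.

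The shares of cells with a UMI of Ms4a4a were far below those of macrophages too. After thinning they were 5.35% and 7.39% of B cells, 4.54% and 6.36% of T cells, 5.73% and 7.60% of granulocytes and 5.23% and 3.90% of DCs labelled siFXR1-LNA, at median depths of 1969 and 2225.5, 1992.5 and 2470, 1830 and 2094, and 4662.5 and 6938 UMIs. The unnamed cluster had 7.72% and 10.1%, and epithelial or mesothelial cells 1.94% and 2.59%. The ratio of Ms4a4a to Ms4a6d UMIs in these libraries was 3.61 and 2.81 in macrophages, 2.71 and 3.00 in B cells, 2.34 and 2.00 in T cells, 3.03 and 2.59 in granulocytes and 2.80 and 2.57 in the unnamed cluster, whereas DCs had 1.54 and 0.689. Under the siCont label the ratio was 0.377 and 0.525 in macrophages and 1.00 and 1.48 in B cells. There T cells had 0.170 and 0.103 and DCs 0.106 and 0.0791. The part of RNA from macrophages in the Ms4a4a of the other types was not tested. Leaving out either library labelled siFXR1-LNA ended the calls in DCs (adjusted p = 0.153 and 0.0912), B cells (0.101 and 0.0813) and T cells (0.0693 and 0.0842), while that in granulocytes held. Over the clusters that every library filled, the DC difference was 2.48 (adjusted p = 0.0127), so it was as large there. In the 1 such cluster of B cells Ms4a4a did not pass by edgeR (0 of 5 members called). Its log2 difference in B cells lay between 2.68 and 3.03 under all 15 alternatives, that cluster included. Of 15 alternatives, the Ms4a4a call held under 12 in DCs and 11 in B cells.

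**Figure D3:**
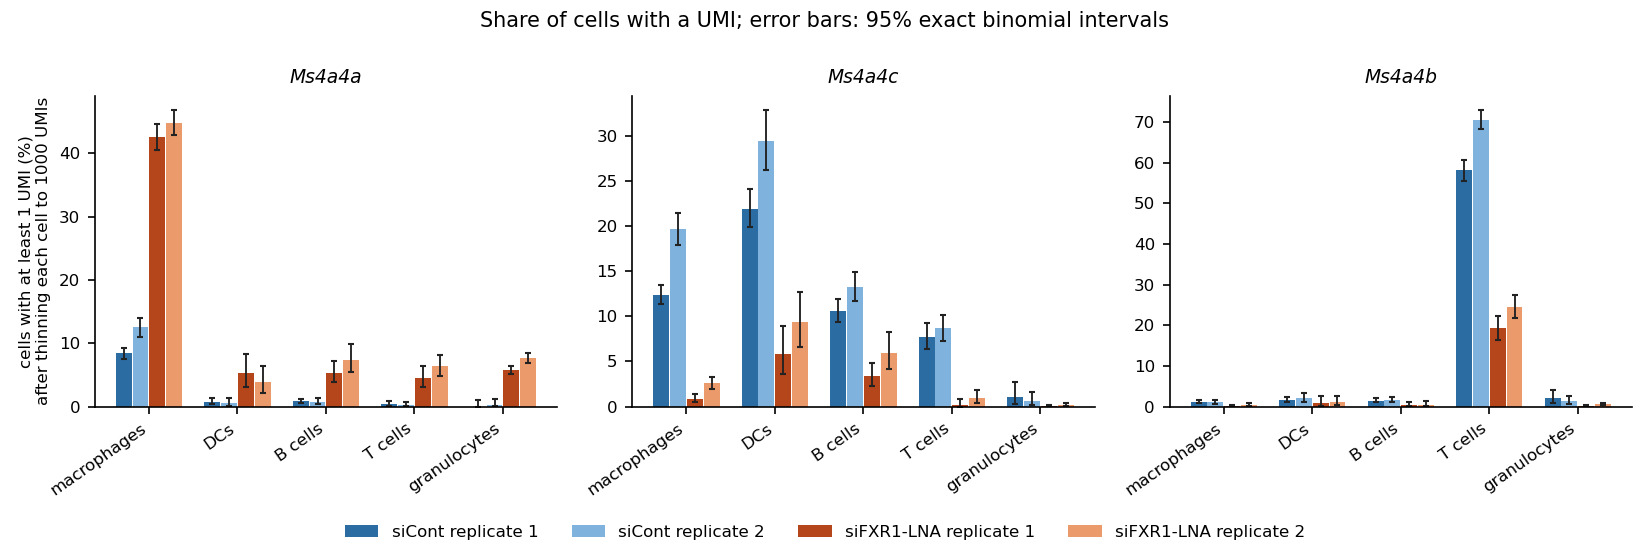
Share of cells with at least 1 UMI of Ms4a4a, Ms4a4c and Ms4a4b after each cell was thinned to 1000 UMIs, by cell type and library, with 95% exact binomial intervals that cover counting error only. Ms4a4a was found in 42.6% and 44.9% of macrophages labelled siFXR1-LNA against 3.90% to 7.60% in the other 4 types plotted of those libraries, and Ms4a4b in 58.1% and 70.6% of T cells labelled siCont.

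At an unadjusted p under 0.05 by edgeR there were 5 of 8 members in macrophages, 7 of 8 in DCs and 7 of 8 in B cells. There were 5 of 8 in T cells and 6 of 9 in granulocytes, and the shares of all genes at that limit are not given here. Past the adjusted threshold there were 1 to 3 members in each of the 5 types. In macrophages 1 of the 8 members tested was higher and 2 were lower, while of all 13963 genes tested 9.08% were higher and 8.41% lower (17.5% in either direction). In DCs 1 was higher and 1 lower of 8, with 1.06% and 1.18% of 11692 genes (2.24%). In B cells 1 was higher and 0 were lower of 8, with 0.143% and 0.0252% of 11924 genes (0.168%). In T cells 1 was higher and 1 lower of 8, with 0.272% and 0.219% of 11413 genes (0.491%), and in granulocytes 1 was higher and 2 lower of 9, with 0.825% and 1.94% of 12238 genes (2.77%). The second lower member in granulocytes, beside Ms4a1, was Ms4a4b, with 25.5, 19.9, 2.86 and 5.47 CPM (log2 difference -2.71, SE 0.47, adjusted p = 0.0155), where the 6 T cell markers summed to 45.9, 44.3, 12.6 and 31.6 CPM. It was lost without siFXR1-LNA replicate 1 (0.120). The granulocytes of the 2 labels were largely different clusters: 426 of 441 and 840 of 903 of those labelled siCont lay in the 1 led, within granulocytes, by the mast cell genes Mcpt4, Cma1 and Cpa3, and 6 and 179 of those labelled siFXR1-LNA. The median log2 difference of the members was -0.91 in macrophages, -1.31 in DCs, -0.46 in B cells, -1.15 in T cells and -0.85 in granulocytes, while that of all genes tested lay between -0.01 and 0.00.

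**Figure D4:**
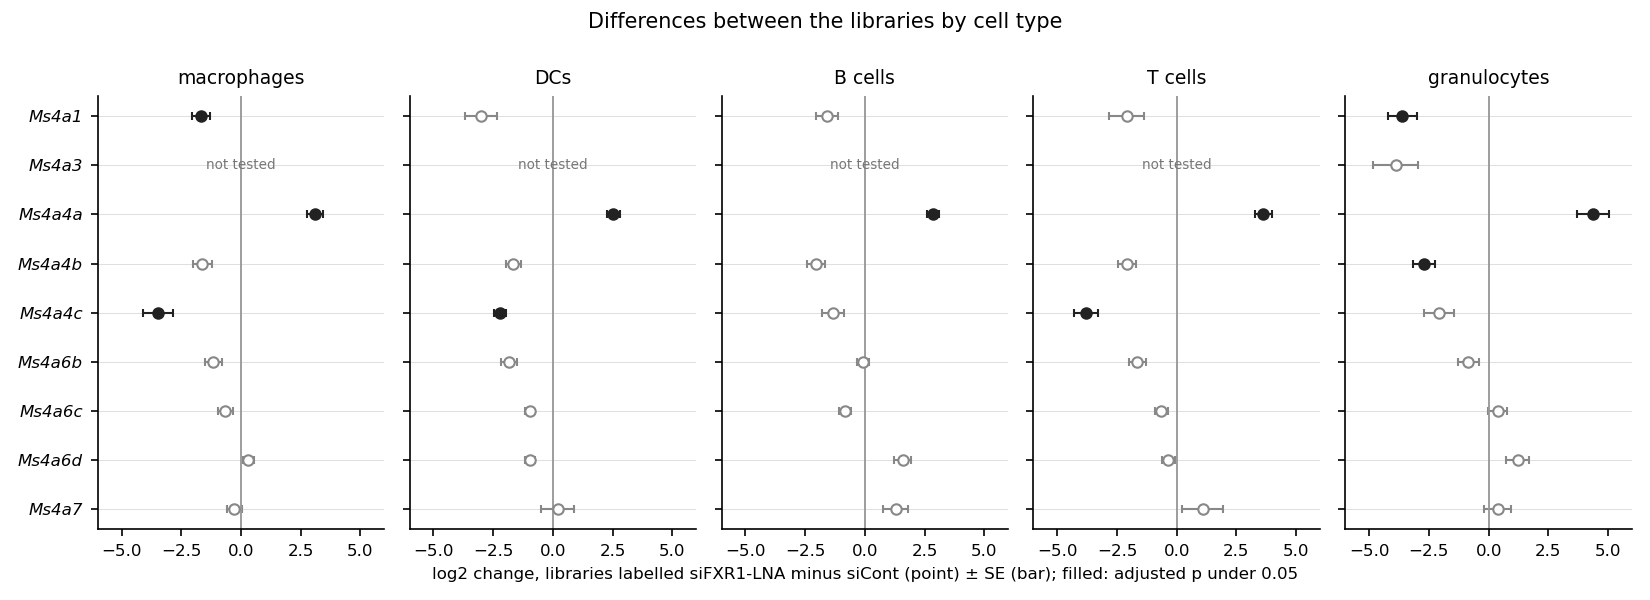
Log2 difference of each member, siFXR1-LNA label minus siCont label (points), with its standard error (bars) in the 5 cell types tested, 2 libraries in each group; filled points passed an adjusted p of 0.05. Ms4a4a is to the right of 0 in all 5 types (2.53 to 4.38), and Ms4a4c to the left (-3.80 to -1.33).

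Whether the difference between the labels was itself different in DCs and in macrophages was tested with an interaction term of type and label and a term for each library. It was for 3 of the 8 members tested, against 7.30% of 14123 genes. The log2 difference of Ms4a4c was smaller in size in DCs by 1.31 (SE 0.27, adjusted p = 0.00793), that of Ms4a6b was lower in DCs (-0.70, SE 0.17, adjusted p = 0.0256), and so was that of Ms4a6d (-1.28, SE 0.17, adjusted p = 0.000345), which passed the test in neither type alone. Over the finer clusters that every library filled, edgeR called 0 of 8 members, with 2 at an unadjusted p under 0.05. Of all genes tested there, 59 of 12020 were called, so the loss of a call does not show that the difference is absent. There the result for Ms4a4c was 1.08 (adjusted p = 0.452) and that for Ms4a6b -0.15 (0.926), and that for Ms4a6d turned direction (0.36, adjusted p = 0.731). The result for Ms4a6b was also lost without either library labelled siFXR1-LNA (adjusted p = 0.0793 and 0.215). Between T cells and macrophages edgeR called no member (background 1.97% of 14419 genes). At an unadjusted p under 0.05 there were 2, Ms4a7 and Ms4a6d, and no other tool was run on the interaction. On simulated data this interaction test recovered 16.2% of 4-fold and 0% of 2-fold changes for T cells. The absence of a call for T cells therefore does not show that the differences are alike. For DCs it recovered 49.0% and 2.04%. It also called 5 unchanged genes for DCs and 2 for T cells.

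Of 12 other genes of the family, including the related Tmem176a and Tmem176b, 5 could be tested in macrophages and 1 passed. This was Ms4a8a, which is known from alternatively activated macrophages, with 107, 154, 364 and 306 CPM (log2 difference 1.56, SE 0.25, adjusted p = 0.0186), higher in both libraries labelled siFXR1-LNA. Ms4a8a also passed in granulocytes at 3.83, 2.84, 22.4 and 28.7 CPM (2.67, SE 0.52, adjusted p = 0.0267), where the unnamed cluster of the same libraries had 33.1 and 32.5 CPM. Ms4a2 had 117, 314, 127 and 208 CPM in mast cells or basophils. In granulocytes Ms4a2 went from 8.93 and 8.52 to 0.690 and 0.821 CPM (-3.80, SE 0.59, adjusted p = 0.00953), where the summed mast cell markers went from 2979 and 1713 to 310 and 514 CPM. In DCs, B cells and T cells edgeR called 0 of 3, 4 and 4 other family genes, with 1, 2 and 2 at an unadjusted p under 0.05, and DESeq2 called 1 in each. The macrophage call of Ms4a8a was lost without siFXR1-LNA replicate 1 (log2 difference 1.44). It was also lost over the clusters that every library filled (1.04, adjusted p = 0.431), where no macrophage gene at all was called. In the largest of these its log2 difference was -0.07, and the granulocyte calls were lost without siFXR1-LNA replicate 2 (0.0840 for Ms4a8a and 0.0634 for Ms4a2) and, for Ms4a2, without replicate 1 (0.164).

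Of 9 genes whose proteins are known partners of the family, none passed the test upwards in any type. Tested in macrophages, 3 of 9 were lower: Fcer1a, the IgE receptor chain that pairs with Ms4a2 (18.1, 7.08, 1.13 and 1.57 CPM, log2 difference -2.996, SE 0.52, adjusted p = 0.0224), Tnfrsf18 (2.79, 3.06, 0.464 and 0.719 CPM, -2.07, SE 0.40, adjusted p = 0.0286) and Cdkn3 (9.42, 8.88, 1.39 and 1.06 CPM, -2.71, SE 0.28, adjusted p = 0.00832). In granulocytes 3 of 9 were lower, Fcer1a (56.1, 30.7, 5.62 and 7.2 CPM) and the B cell receptor chains Cd79a (24.2, 39.2, 4.83 and 7.57 CPM) and Cd79b (15.3, 18.7, 4.73 and 4.65 CPM), the last 2 not without siFXR1-LNA replicate 1 (adjusted p = 0.0842 and 0.188) and Cd79b also not without siCont replicate 2 or siFXR1-LNA replicate 2 (0.0825 and 0.122). Beside Fcer1a, the summed markers of mast cells in macrophages went from 858 and 275 to 43.5 and 53.2 CPM. Beside Cdkn3, the cycling macrophage cluster, with Pclaf, Birc5 and Mki67 among its leading genes, held 292, 219, 14 and 34 cells. Beside Tnfrsf18, T cells had 99.3, 169, 52.4 and 61.8 CPM of that gene. The part of cycling cells and of RNA from other cells in these calls was not tested. The macrophage call of Tnfrsf18 was lost without any 1 of the 4 libraries (adjusted p from 0.0631 to 0.163), that of Fcer1a without either library labelled siFXR1-LNA (0.159 and 0.0971) and that of Cdkn3 without siFXR1-LNA replicate 1 (0.0562). Tnfrsf18 was also lost at a clustering resolution of 0.3 (0.0539), with cells named one by one (0.0699) and with Ms4a genes kept in the clustering (-0.88, adjusted p = 0.256), and Cdkn3 in the last of these (-1.82, adjusted p = 0.0793). All 3 were lost over the clusters that every library filled (adjusted p from 0.275 to 0.332), at log2 differences of -2.68 (Fcer1a), -2.46 (Tnfrsf18) and -2.63 (Cdkn3). No macrophage gene at all was called over those clusters. In DCs, B cells and T cells, 7 partner genes each were tested and edgeR called 0, with 3, 5 and 3 at an unadjusted p under 0.05, while DESeq2 called 2, 1 and 1.

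The genes most like each member across the 47 named finer clusters are given as a description without a test, since clusters share libraries and were formed from such genes. Pearson's r of log2(CPM + 1) over 8954 genes was highest for Ms4a1 with Iglc2 (0.964) and Cd79a (0.960), for Ms4a3 with the primary granule genes Ctsg (0.893), Elane (0.890) and Mpo (0.872), and for Ms4a4b with Gm2682 (0.915), Cd6 (0.904) and Cd27 (0.892). Ms4a4a went with the heme oxygenase gene Hmox1 (0.948), with Arg1 (0.913) and with Ms4a8a (0.905). Ms4a6c was closest to the cathepsin genes Ctss (0.890) and Ctsc (0.861), and Ms4a7 to C3ar1 (0.881), Csf1r (0.835) and C1qc (0.825). Among the genes closest to Ms4a6d were the cathepsin gene Ctsa (0.879) and Cndp2 (0.873). For Ms4a4c and Ms4a6b the closest genes were less alike: Cd72 (0.800) and the interferon-induced Ifi209 (0.798) and Ifi27l2a (0.789) for the former, and Runx3 (0.815), Nfatc2 (0.788) and Ifngr1 (0.782) for the latter. Among the members themselves the highest r was 0.82, between Ms4a6c and Ms4a6d, then 0.77 between Ms4a4a and Ms4a7, whereas Ms4a4b and its near-identical neighbour Ms4a4c had 0.31 and Ms4a6b and Ms4a6c had 0.54.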

How the data were processed

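Ascites cells of 4 libraries were profiled by droplet single-cell RNA-seq. The authors deposited raw UMI counts per gene and barcode, made per the labels with Cell Ranger 7.0.0 on mm10 and not normalized (the methods name another version), without replicates being pooled across libraries. The members and lists were chosen with earlier results of these data known.

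The filter of the methods was applied (100 to 4800 genes per cell, mitochondrial share up to 15%). Seurat 5.3.0 (R 4.3.3) clustered all libraries together at a resolution of 0.1 and each cluster again, with Ms4a genes left out. The naming rule was written with the clusters in view: a list named a cluster if 3 or more of its markers were raised 2 times and found in a share of 0.05 of its cells, and a cluster with more markers of another class than of its own among its 10 leading genes, or with markers of another type raised to a share of 0.25 of that type's level, was left unnamed. Scrublet (scanpy 1.11.5) marked 1 cell, so it had not worked, and no doublets were removed. Counts were summed per library and type, which covers the total of 69438972 to 110663637 UMIs of kept cells, and tested with edgeR 4.0.16 (TMM, filterByExpr, quasi-likelihood test, Benjamini-Hochberg over all genes tested, threshold 0.05) where each library held at least 10 cells. Types are clusters of the same cells and were not tested against each other. Shares are of cells thinned to 1000 UMIs. All 9 members are named whatever their values, of the other family genes and partners those past the threshold, and genes among the 3 most correlated with each member. Some items are not reported here. On simulated data, the test between the labels recovered 4-fold changes in 79.6% of genes in macrophages, 77.1% in DCs and 61.9% in B cells. The shares were 69.9% in T cells and 53.1% in granulocytes, and 3.12% to 24.5% for 2-fold changes. It also called 24 unchanged genes in macrophages, 7 in DCs, 6 in B cells, 10 in T cells and 7 in granulocytes. In each type these were a larger share of its calls than 0.05. The recovered genes of 4-fold change numbered 74, 74, 60, 65 and 51 in that order. Alternatives were DESeq2 1.42.0, no filter, the replicate number as a block, each library left out, other cell filters, clusterings and namings, and 2 chosen after seeing the data: sums over the finer clusters that every library filled (the interaction included), and the unnamed clusters kept.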

Additional observations from a re-analysis of the deposited data

Results flagged for a closer look

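In 3 cases the difference between the labels was itself different in DCs and in macrophages, by an interaction test in edgeR. For Ms4a4c the log2 difference in DCs minus that in macrophages was 1.31. For Ms4a6b it was -0.70, and for Ms4a6d it was -1.28. The calls of Ms4a4c and Ms4a6d held under 6 of 7 alternatives, and that of Ms4a6b under 4. The finer clusters that make up DCs and macrophages differ between the labels. Over the finer clusters with at least 10 cells in every library, none of the 3 passed by edgeR (0 of 8 members called, 2 at an unadjusted p under 0.05). The value was 1.08 for Ms4a4c (adjusted p = 0.452) and -0.15 for Ms4a6b (0.926), and for Ms4a6d it turned to 0.36 (0.731). Over those clusters 59 of 12020 genes were called, against 1031 of 14123 over all clusters.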

How the results depend on the processing

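Group differences of the Ms4a genes depended on the libraries and on which clusters were summed. Leaving out 1 library, which assumes that the lone library of a group varies like the other group, gave 0 to 3 members called in macrophages (3 with all), 0 to 6 in DCs (2), 0 to 5 in B cells (1), 0 to 4 in T cells (2), 2 to 5 in granulocytes (3) and 0 to 2 in the interaction of T cells and macrophages (0), and over all genes 185 to 1639 calls in macrophages (2442 with all), 0 to 1239 in DCs (262), 1 to 1190 in B cells (20), 0 to 948 in T cells (56) and 170 to 2216 in granulocytes (339). DESeq2 called 5 members in macrophages, 5 in DCs, 2 in B cells and 4 in T cells, and over all genes 533 in DCs, 397 in B cells, 325 in T cells and 526 in granulocytes. Without a filter, 7, 7, 6 and 4 members were called in macrophages, DCs, B cells and T cells, and 4155, 1498, 1203, 928 and 1166 genes in the 5 types in the order above. The replicate numbers give only 2 pairs and no source ties them to a shared day or animal. Samples with the same number deviated together (r = 0.218 to 0.370 over genes, by type). With the replicate block (paired by number) 5, 7, 5, 4 and 5 members were called, and 1264, 961, 450 and 1319 genes in DCs, B cells, T cells and granulocytes. A first clustering at a resolution of 0.3 gave 1 member in T cells and 1623, 43 and 1343 genes in macrophages, B cells and granulocytes. With Ms4a genes kept in the clustering there were 6, 1 and 5 members in DCs, T cells and granulocytes, and 453 and 1453 genes in DCs and granulocytes. Cells named one by one gave 1 and 2 members in DCs and B cells, and 132, 83 and 125 genes in DCs, B cells and T cells. The largest shared cluster alone gave 0, 1 and 0 members and 21, 70 and 71 genes in macrophages, DCs and B cells, and the clusters with at least 10 cells in every library gave 0 members and 0 genes in macrophages and 0 members and 71 genes in B cells, by edgeR, and 0 members in the interaction of DCs and macrophages (3 over all clusters). At an unadjusted p under 0.05 there were 1, 4 and 2 members in the former and 3, 2 and 2 in the latter. Neither could be computed for T cells and granulocytes, which had no such named cluster. In the interaction of DCs and macrophages over shared clusters, 59 of 12020 genes were called, against 1031 of 14123 over all clusters. The mean level of Ms4a6d in macrophages was 254.9 CPM and 297.9 CPM with hemoglobin, mitochondrial and ribosomal genes left out of the total. Of the values of single genes under alternatives, 516 kept their direction and side of the threshold, 36 lost it, 81 gained it and 35 turned direction, the cause of which was not tested.

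Those 35 were of small or uncertain size, with adjusted p of 0.202 or more. In the largest shared cluster alone the log2 differences turned to 0.10 (Ms4a4b), 0.51 (Ms4a4c), 0.50 (Ms4a6b), 0.20 (Ms4a6c) and 0.45 (Ms4a7) in macrophages, 0.076 (Ms4a6d) in DCs and 0.40 (Ms4a6b) in B cells. Over all shared clusters they were -0.0020 (Ms4a6d) in macrophages, 0.34 (Ms4a6d) and -0.23 (Ms4a7) in DCs and 0.40 (Ms4a6b) in B cells, and in the interaction of DCs and macrophages 1.20 (Ms4a4a), 0.12 (Ms4a4b), 0.068 (Ms4a6c), 0.36 (Ms4a6d) and -0.094 (Ms4a7). Ms4a7 was 0.19 in macrophages at a resolution of 0.3 and -0.53 in DCs with Ms4a genes kept. Ms4a6b in B cells was 0.0042 without the highest Scrublet scores, and cells named one by one gave -1.10 (Ms4a6c) and -0.067 (Ms4a6d) in granulocytes. Leaving out 1 library, the difference lay between -0.77 and 0.13 for Ms4a7 in macrophages, -1.46 and 0.83 for Ms4a7 in DCs, -0.20 and 0.043 for Ms4a6b in B cells, -4.71 and 6.47 for Ms4a3 and -0.028 and 0.66 for Ms4a6c in granulocytes, -0.28 and 0.28 for Ms4a4b and -0.67 and 1.02 for Ms4a7 in the interaction with DCs, and -0.20 and 0.16 for Ms4a6c, -0.31 and 1.34 for Ms4a4a and -1.07 and 0.34 for Ms4a1 in that with T cells. Of the members past the threshold, Ms4a4a in granulocytes stayed past it under each alternative run.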
